A study of Mus musculus with 2 samples.

Results

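The 8 microRNAs described here, mmu-miR-142a-3p, mmu-miR-142a-5p, mmu-miR-146a-5p, mmu-miR-146b-5p, mmu-miR-150-5p, mmu-miR-155-5p, mmu-miR-223-3p and mmu-miR-342-3p, were grouped because they are known from leukocytes and from inflammatory signaling. The grouping uses no measured value, and the species prefix is left out from here on. They are 8 of the 1892 mature mouse microRNAs with a probe on each array. Of these, 6 were found by name, and the pair from the miR-142a precursor, which the array calls miR-142-3p and miR-142-5p, was found by its mature sequence. The study compared skin and oral mucosa of mice, both unwounded, to ask which microRNAs are specific to each tissue before injury. Each tissue was measured on 1 single-color (Cy5) microarray, to which 2 µg of total RNA was applied from a pool of 3 animals, with matched skin and mucosal samples. The study describes its mice as female Balb/c animals of 8 to 10 weeks, and none of the samples used here had been wounded or treated. The study speaks of epithelium but also of tissue samples, so how much dermis, lamina propria or blood each pool held is not known. With 1 array per tissue there was no replicate pool and no test between the tissues, and the SD given with a value is that of its 2 repeat spots, which share 1 pool of RNA.

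MicroRNAs are short RNAs that guide Argonaute proteins to messenger RNAs, mostly through the seed, bases 2 to 8 from the 5′ end, and lower their translation and stability. Several are made mainly in blood cells. The miR-142 precursor gives a pair of arms found throughout the hematopoietic lineage, miR-223 is best known from neutrophils and other myeloid cells, and miR-150 from mature lymphocytes, where Myb is its classical target. MiR-155 and miR-146a are switched on by Toll-like receptor and NF-κB signaling. MiR-155 promotes inflammatory responses, whereas miR-146a and its relative miR-146b restrain them by targeting the adaptors Traf6 and Irak1. MiR-342-3p is made from an intron of Evl, a regulator of actin that is active in leukocytes. Healthy skin and oral mucosa both hold resident leukocytes, such as Langerhans cells, macrophages, mast cells and T cells.

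The mature sequences of 7 of the 8 microRNAs were matched by name in RefSeq (GRCm38.p6), and all 7 were identical to the target sequence that the array lists for the probe. They are shown because the array reads each microRNA by pairing over its length, and because the seed tells which members could share target genes. The capitals mark the seed.
miR-146a-5p: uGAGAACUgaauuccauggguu
miR-146b-5p: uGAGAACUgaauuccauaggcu
miR-342-3p: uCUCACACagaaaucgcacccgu
miR-142a-3p: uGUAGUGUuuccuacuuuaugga
miR-142a-5p: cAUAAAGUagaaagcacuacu
miR-155-5p: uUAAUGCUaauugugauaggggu
miR-223-3p: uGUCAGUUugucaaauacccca
MiR-146a-5p and miR-146b-5p have the same seed, and no further probe of the array has it. The seeds of the other 5 were found in no other probe, so that 6 different seeds stand behind these 7 sequences. The sequences are 21 to 23 bases long, with a GC content from 33.3% in miR-142a-5p to 52.2% in miR-342-3p.

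The precursors lie apart in the genome. The mature miR-146a-5p is encoded at chr11:43374435-43374456 on the minus strand, and no other annotated gene overlaps its precursor gene Mir146. MiR-146b-5p comes from the plus strand of another chromosome, at chr19:46342790-46342811, within the span of the long noncoding RNA gene Gm36493. MiR-342-3p is encoded at chr12:108658680-108658702 within the protein-coding gene Evl. MiR-155-5p, at chr16:84714143-84714165, lies within its host gene Mir155hg, and miR-223-3p, at chrX:96242884-96242905, within the long noncoding RNA gene F630028O10Rik. MiR-142a-5p, at chr11:87756867-87756887, and miR-142a-3p, at chr11:87756903-87756925, come from the plus strand, where Mir142b is annotated on the opposite strand. The probe of miR-142b was detected on neither array.

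Of the 8 microRNAs, 4 gave a signal above background in unwounded tissue, on at least 1 array (background of all probes 29.7%). Detection required that the average of both repeat spots exceed the average of 16 empty spots by 3 of their SD. The empty spots read 36.4 ± 7.84 (SD) in scanner units for skin and 51.9 ± 6.65 for oral mucosa. The resulting limits were 59.9 and 71.8. By this rule 3 of the 8 microRNAs (37.5%) were detected on the skin array, where 23.6% of all probes were, and 4 of 8 (50%) on the oral mucosa array, where 27% of all probes were. MiR-146a-5p, miR-146b-5p and miR-342-3p were detected on both arrays, and miR-150-5p on the oral mucosa array only. MiR-142a-3p, miR-142a-5p, miR-155-5p and miR-223-3p were detected on neither. For each of the 4 detected microRNAs both repeat spots were on the same side of the limit as their mean, on either array.

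**Figure D1:**
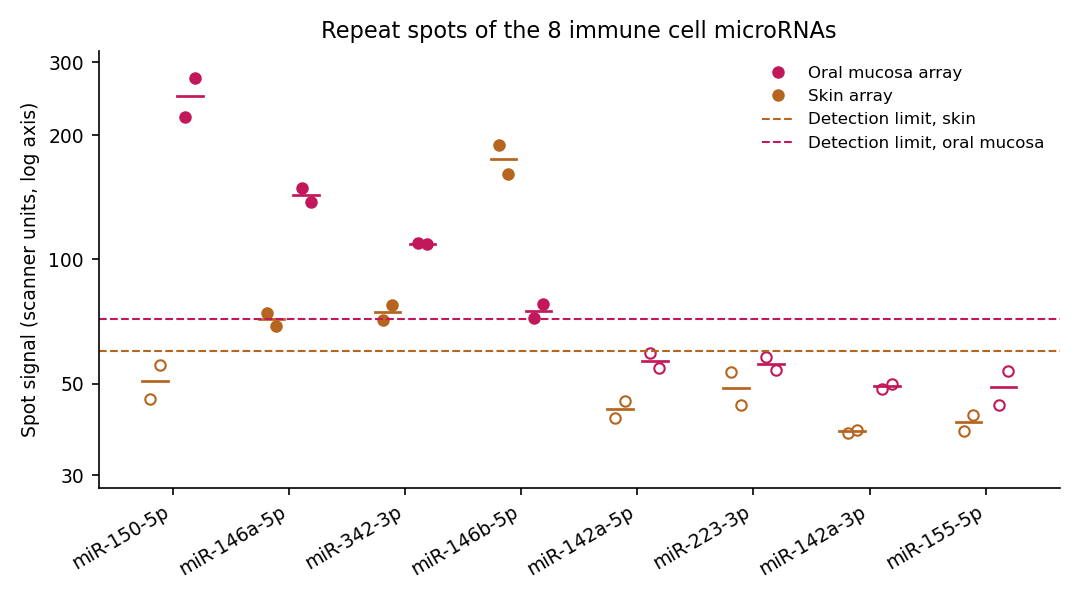
Signal of each repeat spot (scanner units, log axis) for the 8 immune cell microRNAs on the skin and oral mucosa arrays; bars are the means of the 2 spots, filled points belong to arrays that detected the microRNA, and dashed lines are the detection limits of 59.9 (skin) and 71.8 (oral mucosa). MiR-150-5p, miR-146a-5p and miR-342-3p lie higher on the oral mucosa array and miR-146b-5p on the skin array, while the 4 microRNAs on the right stay under both limits.

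MiR-150-5p, the microRNA of mature lymphocytes, was the member most shifted toward oral mucosa. Its 2 spots read 221.5 and 274.5 on the oral mucosa array and 45.9 and 55.6 on the skin array. The mean on the oral mucosa array, 248 ± 37.5, was 3.45 times the detection limit, whereas that on the skin array, 50.7 ± 6.89, lay below its limit, 1.83 SD over the empty spots. Differences are given as oral mucosa minus skin after Variance Stabilizing Normalization (VSN), on a scale parallel to log2, and the size rule asks for a value of at least 1 in either direction (2-fold). As skin did not detect miR-150-5p, its oral mucosa signal was set against the lowest signal detected on the skin array, 59.9. With VSN the fitted value lay 6.63-fold above this floor (log2 difference 2.73, SD 0.27 from its oral mucosa spots). Over the 8 other ways of normalizing, 2 of them variants of VSN, the log2 difference ran from 1.58, with quantile normalization, to 2.73, and past the size rule each time. With the authors' processed values (1.71) its own skin value was used, as it was not below the floor there. With the other ways its own skin signal lay below the floor, so those values have no exact rank among the measured differences. The opposite arm of the same precursor, miR-150-3p, read 55.8 ± 7.70 on the oral mucosa array and 43.2 ± 3.06 on the skin array and was detected on neither.

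MiR-146b-5p had the opposite pattern and was the only detected member with more signal in skin. It read 189.6 and 160.6 on the skin array, against 72.1 and 77.9 on the oral mucosa array. The oral mucosa mean was 1.04 times the detection limit there, while the skin mean of 175 ± 20.5 was 2.92 times its limit. The log2 difference was -2.71 (SD 0.30 from the repeat spots of both arrays), or 6.52-fold toward skin. The size depended on the normalization, and it was -1.22 with no normalization between the arrays. The opposite arm of this precursor was detected on neither array (37.8 ± 2.24 in skin, 43.9 ± 0.77 in oral mucosa).

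MiR-146a-5p, which shares its seed with miR-146b-5p, leaned toward oral mucosa. Its spots read 148.5 and 137.4 on the oral mucosa array and 74.2 and 69.2 on the skin array. The log2 difference was 1.05 (SD 0.19), a 2.08-fold higher signal that lay closer to the size rule than its SD. It was below the rule after quantile normalization (0.59) and after scaling each array to its median (0.69), 75th percentile (0.54) or calibration control spots (0.67). It was also below with no normalization (1.00 when rounded), the authors' processed values (0.51) and the second repeat spot alone (0.94). It was above 0 in each of these. Its opposite arm was detected on neither array (38.6 ± 1.00 in skin, 44.4 ± 1.46 in oral mucosa).

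The pair with a common seed thus moved apart between the tissues. The mature sequences are identical at 20 of 22 positions and differ by G18A and U21C, with positions counted from the 5′ end, the base of miR-146a-5p first and that of miR-146b-5p last. They are printed here with the differing bases in capitals.
miR-146a-5p: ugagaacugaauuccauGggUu
miR-146b-5p: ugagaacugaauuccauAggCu
The log2 difference of miR-146a-5p exceeded that of miR-146b-5p by 3.76, and under all alternatives that gave both values by 2.07 to 4.14. A common scale factor between the arrays cancels in this comparison, as long as no offset is taken out: it was 2.22 with each of the scalings that multiply all signals of an array. How far each probe also bound the other microRNA was not tested.

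MiR-342-3p, from the Evl locus, was detected on both arrays with a small difference. It read 71.3 and 77.7 in skin and 109.4 and 108.9 in oral mucosa, which is 1.24 and 1.52 times the limits. The log2 difference was 0.32 (SD 0.18), or 1.25-fold, under the size rule. It was 0.04 with the authors' processed values and at most 0.55, with no normalization, where the median of all detected probes was itself 0.40. Its opposite arm was detected on neither array (39.9 ± 3.90 and 50.3 ± 0.25).

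**Figure D2:**
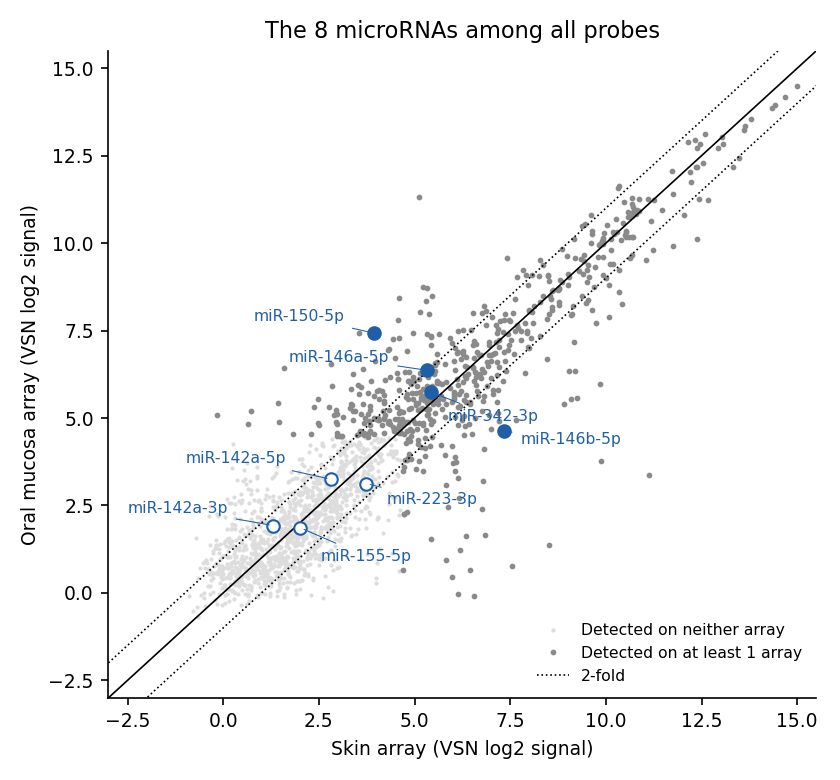
VSN log2 signal of all 1892 probes on the skin array (horizontal) and the oral mucosa array (vertical), with the 8 microRNAs in blue, filled where at least 1 array detected them; the solid line marks equal values and the dotted lines 2-fold. MiR-150-5p lies above and miR-146b-5p below the dotted lines, miR-146a-5p on the upper dotted line, and the 4 undetected members within the cloud of undetected probes.

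By the size rule 3 of the 4 detected members differed, 2 with more signal in oral mucosa and 1 with more in skin. Of all 562 probes detected on at least 1 array 28.5% differed, 13.7% toward oral mucosa and 14.8% toward skin. These 160 calls fell to between 80 and 102 with the scalings other than VSN, and with no normalization 80 were toward oral mucosa and 22 toward skin, while the members past the rule went from 3 to 2. With 4 microRNAs the share says little about the group. The median difference of the 4, which lay on both sides of 0, was 0.69 with VSN and 0.28 with the authors' processed values, against -0.00 over all detected probes with VSN. In scanner units, before normalization, the repeat spots of the arrays were apart for all 4, as they were for 77.2% of the detected probes. They were also apart for the 4 undetected members, so this says little about the tissues. The direction of each of the 4 was kept under every normalization tried, and miR-150-5p and miR-146b-5p passed the size rule under all of them.

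**Figure D3:**
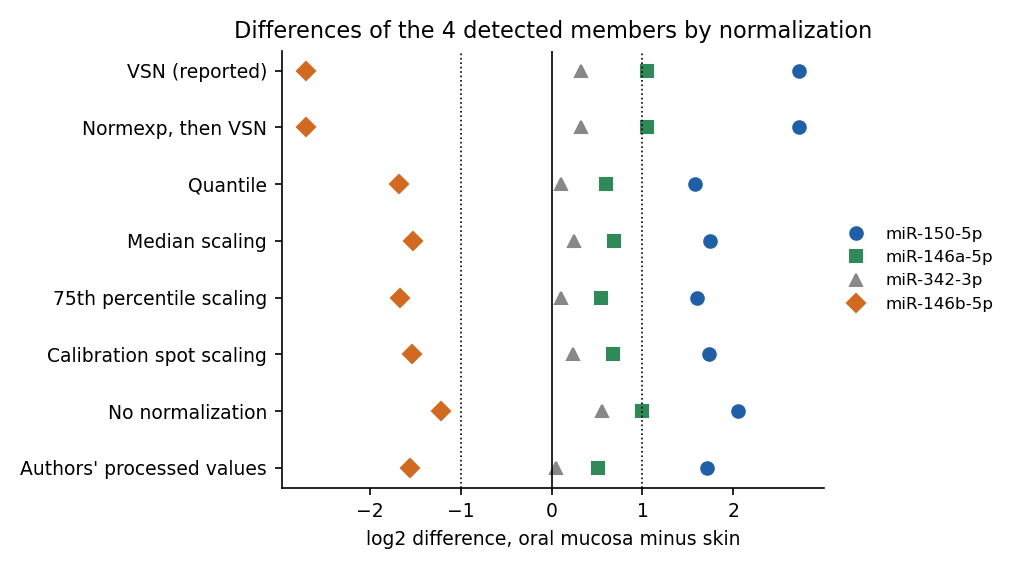
Log2 difference between oral mucosa and skin (horizontal) for the 4 detected microRNAs under 8 ways of normalizing the arrays (rows), with dotted lines at 2-fold. MiR-150-5p stays at 1.58 or more and miR-146b-5p at -1.22 or less, while miR-146a-5p runs from 0.51 to 1.05 and miR-342-3p from 0.04 to 0.55.

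The other 4 members, both arms of miR-142a, miR-155-5p and miR-223-3p, read near the level of the empty spots. MiR-142a-3p, found in nearly all hematopoietic cells, read 38.0 and 38.7 on the skin array and 48.6 and 49.98 on the oral mucosa array. Its means were at 0.25 SD from the mean of the empty spots in skin and at -0.39 SD in oral mucosa. MiR-142a-5p read 41.3 and 45.3 in skin and 59.3 and 54.5 in oral mucosa, 0.89 and 0.76 SD above the empty spots. Both arms of the precursor thus stayed under the limits in both tissues. MiR-223-3p, the myeloid microRNA, read 53.5 and 44.4 in skin and 57.9 and 53.9 in oral mucosa, 1.61 and 0.61 SD above them. MiR-155-5p, which activated lymphocytes and macrophages induce, read 38.5 and 42.1 in skin and 44.5 and 53.6 in oral mucosa, with means at 0.50 SD from the empty spots in skin and at -0.42 SD in oral mucosa. All 4 gave more scanner units on the oral mucosa array, as the empty spots did, so no fold is given. The limits of 59.9 and 71.8 bound their signal from above on each array. Signals under the limits do not show that the microRNAs were absent, since what a low copy number gives on this array is not known. In such pools, fewer leukocytes and less of the microRNA in each cell cannot be told apart.

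None of the 6 opposite arms of the precursors on the array (miR-146a-3p, miR-146b-3p, miR-150-3p, miR-155-3p, miR-223-5p and miR-342-5p) was detected on either array. Of all probes, 29.7% were detected on at least 1. The 4 detected members are arms usually taken as the functional guide, but these arms, and not their opposites, were on the list of members. As signals of different probes do not compare, which arm was kept was not tested. The summed signal of the 8 members was 543 scanner units in skin and 786 in oral mucosa, background included, with miR-146b-5p the brightest probe in skin and miR-150-5p in oral mucosa.

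A wider list of 12 microRNAs linked to leukocytes or inflammation was set beside them. Of these 5 were detected on at least 1 array, against 29.7% of all probes. Of the 5, 2 were past the size rule toward oral mucosa and 0 toward skin, against 13.7% and 14.8% of the detected probes. Their median difference was 0.17. Both the median and the count toward skin include miR-132-3p and miR-187-3p, described below, whose values carry little information. The count toward oral mucosa was 1 after quantile normalization, scaling to the median or calibration spots, or no normalization, and 0 with the 75th percentile and with the authors' processed values. MiR-181b-5p, from a family that acts in lymphocyte development, was detected in oral mucosa only, with spots at 113 and 108 against 53.5 and 49.4 in skin, with a log2 difference of 1.08 over the skin floor (SD 0.09 from its oral mucosa spots). This passed the rule under 2 of the 8 alternatives and was as low as 0.43. MiR-181a-5p of the same family gave 1.01, but its skin spots read 180 and 354, the SD was 0.82, and the value ran from 0.90 to 1.35 under the alternatives. MiR-21a-5p, a broadly expressed microRNA that inflammation and wounding raise, gave 0.17 (SD 0.11), with 851 ± 49.8 in skin and 1301 ± 50.1 in oral mucosa. MiR-132-3p, induced in innate immune cells, was detected in skin only and at the limit itself (59.9 ± 2.62). In oral mucosa it read 58.9 ± 6.91, so the lowest signal detected on that array, 71.9, was used instead. Its skin signal was itself the lowest detected on the skin array, so the difference of -0.24 (0.26 with no normalization) sets floor against floor. The sign of this value says nothing about miR-132-3p. The difference of miR-187-3p was 0.04 with repeat spots too far apart to use (SD 5.23). The macrophage microRNAs miR-147-3p, miR-147-5p, miR-511-5p and miR-511-3p, together with miR-212-3p, miR-326-3p and miR-9-5p, were detected on neither array.

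Markers of other cell types were read on the same arrays. The epithelial list, which holds miR-203-3p, miR-205-5p and the miR-200 family, was detected on both arrays for 7 of 7 members, its summed signal was 49225 in skin and 48779 in oral mucosa, and its brightest probe was miR-205-5p. Of these, 1 was past the size rule toward each tissue, and the median difference was -0.48. The one toward skin, miR-200c-3p at -1.22, was not past it with quantile normalization (-0.95) or with no normalization (-0.75). The one toward oral mucosa, miR-429-3p at 1.12, ran from 1.07 to 1.52 under the alternatives. Its skin spots read 371 and 833, and the SD was 0.89. The list median was near 0 with quantile normalization (0.00) and with no normalization (-0.02). Mesenchymal markers were past the size rule toward oral mucosa with VSN for 5 of 5 members, against 13.7% of all detected probes. Their median difference was 1.78 with VSN and 1.13 with the authors' processed values. Their summed signal was 516 in skin and 1871 in oral mucosa, with miR-214-3p as the brightest in each. Of the 5, miR-143-3p was detected in oral mucosa only and is set against the skin floor. The smallest of the 5, miR-199a-5p, was 1.01 with VSN and as low as 0.51 under the alternatives, whereas the other 4 passed the rule under all of them. Of the endothelial arms, miR-126a-3p passed the limit on the oral mucosa array alone. Its difference from the skin floor was past the rule at 1.84 (SD 0.70 from its oral mucosa spots), but at 0.95 with quantile normalization and 0.92 with the 75th percentile it was not. MiR-126a-5p was detected on neither array, and the summed signals were 81.6 and 200.2. The spots of miR-126a-3p read 57.5 and 29.2 in skin and 191.4 and 119.3 in oral mucosa. Those of miR-126a-5p read 47.3 and 29.1, and 52.3 and 37.3. For each probe 1 skin spot lay below the lowest empty spot of that array (31.0), so these means and sums are uncertain. Of the 3 red blood cell markers with a probe, miR-451a had a difference of 6.21 (SD 0.37) with 67.3 ± 7.34 in skin and 3056 ± 171 in oral mucosa. Under the alternatives it was as low as 5.01. MiR-144-3p and miR-144-5p were detected on neither, and their summed signals with miR-451a were 141 and 3154. In skeletal muscle markers 0 of 4 passed the rule, with a median of 0.53 over the 3 detected and sums of 297 and 428. Of these, miR-133a-3p (48.4 ± 1.22 in skin, 96.0 ± 8.24 in oral mucosa) was detected in oral mucosa only. So was miR-133b-3p (49.9 ± 1.22 and 90.2 ± 4.01). Their differences, 0.71 and 0.53, are from the skin floor, so the count and the median depend on this floor. The 5 mesenchymal markers, miR-451a and miR-126a-3p thus had more signal in oral mucosa, as miR-150-5p and miR-146a-5p did, and opposite to miR-146b-5p. For endothelium and red blood cells this is 1 of 2 and 1 of 3 probes. The muscle markers miR-133a-3p and miR-133b-3p also had more signal in oral mucosa, though under the size rule, whereas miR-206-3p gave -0.19. Their part in the differences of the immune cell microRNAs was not tested, and with 1 pool per tissue cell content and tissue cannot be told apart.

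**Figure D4:**
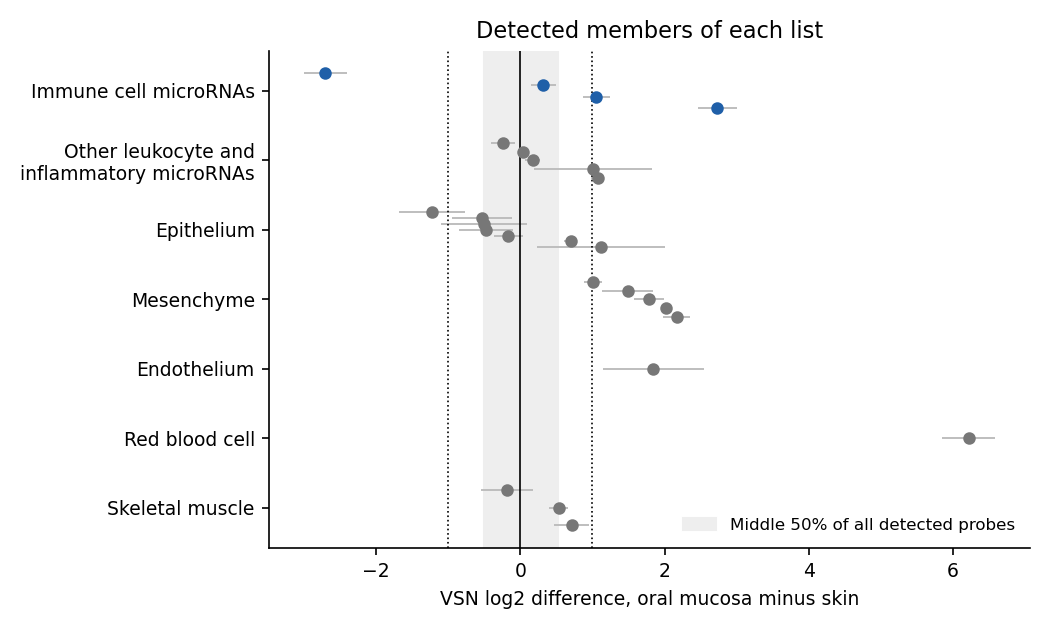
VSN log2 difference between oral mucosa and skin for each detected microRNA of the 7 lists, with the SD from repeat spots (drawn where under 3, which leaves out the bar of miR-187-3p), dotted lines at 2-fold and the middle 50% of all detected probes in gray. For a microRNA that an array did not detect, the lowest signal detected on that array was used. The 4 immune cell microRNAs spread to both sides, from -2.71 to 2.73, whereas the 5 mesenchymal members all lie at 1.01 or more with VSN.

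The probes most like each detected member were sought by their distance over the 2 VSN values, and with 2 arrays this likeness describes position in the plot of both arrays only. For miR-150-5p they were miR-16-1-3p (0.11) and miR-7053-5p (0.38), but all 3 were below the skin limit, where the VSN value of miR-150-5p had an SD of 0.77, so that this order rests on background. For miR-146a-5p they were miR-1231-5p (0.05) and miR-185-5p (0.12), the latter with skin spots too far apart to place it (70.3 ± 58.0). For miR-146b-5p they were miR-7052-5p (0.31) and miR-365-3p (0.35). For miR-342-3p they were miR-7072-5p (0.16) and miR-7671-3p (0.21). The differences of miR-146a-5p, miR-146b-5p and miR-342-3p had SDs of 0.19, 0.30 and 0.18, close to these distances or larger. The order is thus uncertain for them too.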

How the data were processed

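For each array the authors deposited the median Cy5 intensity of every spot with its SD over pixels, in scanner units, neither background-corrected nor normalized, and besides these 1 processed intensity per microRNA, in whole numbers, by a method not given in the sources used here. How the processed values were scaled stays unknown. Samples were grouped by their titles. The 2 repeat spots of a probe were averaged. VSN, which the study names, was written in Python (arsinh with an offset and a scale per array, least trimmed squares keeping 90% in each of 5 slices of signal but the dimmest). It was also run on simulated arrays drawn from the same model, with changes placed only in brighter probes. This does not test it at the signal of miR-146a-5p or miR-342-3p. The offsets were 37.9 and 46.3. The study's CyberT test was not run, as repeat spots are not replicates of a tissue. Python 3.11.15, numpy 2.4.6, scipy 1.17.1, pandas 2.3.3, matplotlib 3.10.9 and R 4.3.3 with limma 3.58.1 were used. Precision is limited by having 1 array per tissue.

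The members, lists, size rule and alternatives were chosen with earlier results of these data known. Named were the 8 members, the other arms of their precursors, probes that share a seed, the members of the lists, and for each detected member the 2 nearest other detected probes. Overlaps of genes were taken from spans in the RefSeq annotation of GRCm38.p6.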

Additional observations from a re-analysis of the deposited data

How the results depend on the processing

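Each alternative was run on the whole arrays. Of the 4 detected immune cell microRNAs, 0 changed direction under the 12 alternatives of normalization, spots and columns that were run for each of them. The count of members past the size rule, 3, was 2 or 3 under every alternative, the member lost being miR-146a-5p, except with detection asked for on both arrays, which leaves out miR-150-5p. The count over all microRNAs was less stable. It was 160 with VSN, but 80 after quantile normalization, 85 with scaling to the median and also to the 75th percentile, 102 with no normalization, 87 with the processed values that the authors deposited (as log2 after adding 50), and 86 with scaling to the calibration control spots, which was chosen after seeing the data. The cause was not tested. By construction it was 104 with detection on both arrays, 577 with no detection filter, 256 at 1.5-fold and 46 at 4-fold. Of the calls 48.1% were toward oral mucosa with VSN and 78.4% with no normalization. With the detection limit at 5 SD, 1 of the 8 microRNAs was detected in skin (miR-146b-5p) and 3 in oral mucosa. A single start of the VSN fit and normexp before it gave the same differences to 2 decimals. Repeat spots of 6 members lie in column 2 of the arrays. Spots over 2-fold dimmer than their partner were found in columns 1 and 2 of the skin array between rows 106 and 127, whereas those of the members lie in rows 49 to 82. Without columns 1 and 2, chosen after seeing the data, miR-150-5p gave 2.91 and miR-146b-5p -2.39. No paired analysis was possible because there was 1 array, and so 1 pool, for either tissue. Signal over background limits these values, as each of the 4 detected members read less than 2 times the limit on at least 1 array.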
